A study of Mus musculus with 18 samples.

Results

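Gene expression in the livers of the dark phase was compared with that in the livers of the light phase. Livers were placed in a phase by the zeitgeber time (ZT, hours after the lights come on) on their labels, and all 18 livers of the series entered the comparison, 9 dark (ZT13, ZT17 and ZT21) and 9 light (ZT1, ZT5 and ZT9). They came from WT male mice, 8 to 9 weeks old, under 12 h of light and 12 h of darkness, and no mouse carried a further allele or received an agent. Each mouse gave 1 whole liver at 1 time point, with 3 mice per time point, and the study chose for sequencing the mice whose RNA was best. The strain and the food supply are not given in the sources used here. Within this design the phase, the time of day and what the mice did at that time change together and cannot be told apart. Since RNA came from whole livers, fewer cells of a type and less RNA per cell cannot be told apart either.

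Mice are active and feed mainly in the dark. In hepatocytes a clock of the activators BMAL1 and CLOCK and the repressors PER, CRY and REV-ERB runs through the day, and a large part of the liver transcriptome follows this clock, the rhythm of feeding or both. A fed liver stores glycogen, makes fat and builds proteins, whereas a fasted liver releases glucose, oxidizes fatty acids and recycles cell contents by autophagy.

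The deposited table gives 1 normalized value per gene and liver. It was read as an estimated read count per 1000000 reads after the authors' scaling between libraries, so levels of different genes are not corrected for length. Reads per liver are not given and were estimated from these values, with the lowest value of each liver taken as 0 reads. The estimated reads per liver ran from 11489612 to 15457407 (median 12442234) in the dark phase and from 10268168 to 23242842 (median 11602598) in the light phase, and the difference of the means, 53227 reads, did not pass the exact two-sided permutation test (p = 0.981). The deepest library, that of a ZT5 liver, is the third replicate of its time point. All 8 hepatocyte markers were present, with a summed value of 77020 to 97590 in the light and 85600 to 106900 in the dark, and 2 of them, Hnf4a and Tat, were called higher, neither with plain total scaling. Markers of other cell types were at far lower summed values and overlapped between phases: Kupffer cell markers summed to 129 to 300.1 (median 240) in the light and to 113 to 278 (median 188) in the dark, with 1 of 8 lower in the dark, beside 12.9% of all genes. Sinusoidal endothelial and stellate cell markers each had 2 of 8 lower in the dark and 0 higher, and none of 5 red blood cell markers was called. The Kupffer and endothelial medians were 0.30 and 0.26 at ZT13 minus ZT1, -0.54 and -0.52 at ZT17 minus ZT5 and -0.62 and -0.39 at ZT21 minus ZT9. Of 8 markers of each, 4 were lower without ZT1 and ZT13, with medians of -0.61 and -0.43. Neutrophil markers (5 of 7 tested), markers of T, B and NK cells (5 of 9) and cholangiocyte markers (5 of 6) gave 1 higher and 1 lower, 0 higher and 1 lower, and 1 higher and 0 lower, respectively.

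The dark minus light difference of each gene was the mean of the 3 dark time points minus the mean of the 3 light time points on log2(value + 1), tested with limma, and a gene was called at a Benjamini-Hochberg adjusted p below 0.05. Of 14449 genes, 1857 (12.9%) were higher and 1858 (12.9%) were lower in the dark, 25.7% in all, and 37.4% passed an unadjusted p below 0.05. Most called differences were small. The median was 0.30 among genes that rose and -0.33 among genes that fell, and 81.5% and 83.7% of these, respectively, moved by less than 0.5 on the log2 scale, which understates the change of genes with low values. A difference of at least 1 was found in 53 genes that rose (0.367% of genes) and 34 that fell (0.235%). In 65 genes (0.45%) the lowest dark liver was above the highest light liver, and in 65 others (0.45%) the highest dark liver was below the lowest light liver.

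The highest time point mean was most often at ZT17 in genes that rose and at ZT5 in genes that fell, each in about as many genes as at all other times together. Among the 1857 genes that rose, the highest time point mean was at ZT17 in 880 genes, at ZT13 in 708 and at ZT21 in 219, and in 43 it was at ZT1, just after lights on. Among the 1858 genes that fell, it was at ZT5 in 981, at ZT9 in 563 and at ZT1 in 298. All 3 dark means lay above all 3 light means in 1022 of the genes that rose (55.0%), and below them in 995 of those that fell (53.6%). In the rest, at least 1 time point of one phase was level with or past a time point of the other. The genes were chosen by the difference of the phase means, which by itself favours extremes inside a phase, and nothing further is read from these counts.

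**Figure D1:**
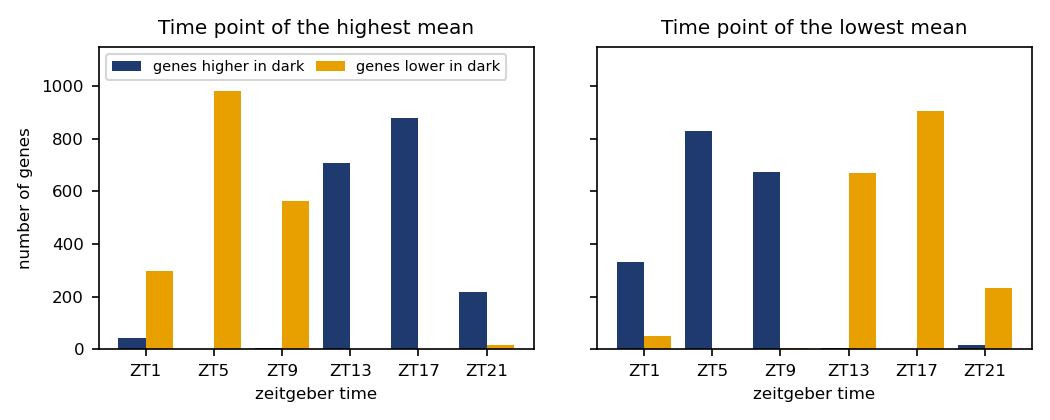
Number of genes (vertical axes) by the zeitgeber time of their highest (left panel) and lowest (right panel) time point mean, for the 1857 genes called higher and the 1858 called lower in the dark. Genes higher in the dark were most often highest at ZT17 (880 genes), and genes lower in the dark were most often highest at ZT5 (981 genes).

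The comparison is the mean of 3 differences between times 12 h apart, ZT13 minus ZT1, ZT17 minus ZT5 and ZT21 minus ZT9, which share no livers. Tested one at a time, 2311 genes (16%) differed between ZT13 and ZT1, 3109 (21.5%) between ZT17 and ZT5 and 1752 (12.1%) between ZT21 and ZT9. The 3 differences had the same sign in 65.8% of the genes that rose and 65.4% of those that fell. These genes were called on the mean of the same 3 differences, which by itself favours a shared sign, and nothing is read from these shares. Over all genes, the 3 differences varied beyond the spread of the livers in 2705 (18.7%, limma F test, adjusted p below 0.05). Of these, 1305 were called dark against light and 1400 were not. Without ZT5 and ZT17 the numbers of genes that rose and fell were 505 and 451, against 1825 and 1926 without ZT1 and ZT13 and 1774 and 1795 without ZT9 and ZT21. Leaving out the deepest library gave 1766 and 1711.

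The p-values measure the spread between the 3 mice of a time point, not the spread between the time points of a phase. With the 9 dark livers set against the 9 light ones and no term for time, 1188 genes rose and 1200 fell, and with time point as a random block these numbers were 457 and 498. Scaling moved the balance of the calls. With each liver scaled to the same plain total, 1180 genes rose and 2571 fell, so that genes that rose were 31.5% of calls in place of 50%, and the median of all genes moved from -0.0068 to -0.054. Small differences of 1 sign in large gene groups are given below with this scaling. Of 135 called genes named by the rule, 63 were not called with time point as a random block and 35 with no time term, and 62 were past the threshold in every setting tried. For single genes below, not every setting in which a call was lost is given.

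**Figure D2:**
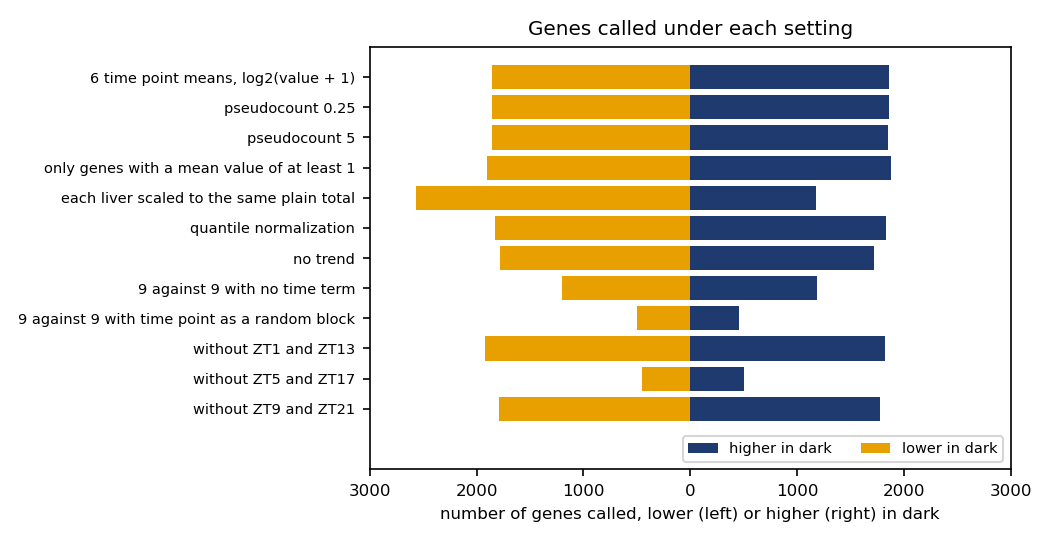
Number of genes called higher (right) and lower (left) in the dark under each setting, at adjusted p below 0.05. The top bar is the comparison as reported (1857 and 1858), and the shortest bars are those without ZT5 and ZT17 (505 and 451) and with time point as a random block (457 and 498).

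The genes with the largest differences were taken from those whose 3 dark means all lay on the same side of the 3 light means and whose mean value was at least 5. The largest rise was that of Cyp2b10 (ENSMUSG00000030483, chromosome 7 from 25897620 to 25926624 of GRCm38), a drug-metabolizing cytochrome P450 and classic target of the nuclear receptor CAR. Its lowest, median and highest values were 4.33, 12.8 and 20.5 in the light livers and 36.5, 70.9 and 98.6 in the dark livers. All 9 dark livers were above all 9 light livers, with means 5.44-fold apart. The log2 difference was 2.42 ± 0.09 (SE, n = 9 and 9, limma adjusted p = 1.42e-11). This SE, like those of the differences below, measures the spread of livers within time points. Cyp2b10 rose between each pair of opposite times, by 1.99, 2.53 and 2.74. Cyp2b10 belongs to a cluster of closely related genes, whose shared reads RSEM divides by estimate.

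Cdkn1a, which encodes the cell cycle inhibitor p21, had 0.234 to 7.79 (median 1.39) in the light and 2.70 to 21.1 (median 12.6) in the dark. The lowest dark liver was one of ZT13 and the 3 highest light livers were those of ZT1, and there the phases overlapped. Its difference was 2.02 ± 0.21 (adjusted p = 2.80e-06), made up of 0.19 at ZT13 minus ZT1, 2.37 at ZT17 minus ZT5 and 3.50 at ZT21 minus ZT9. Eif4ebp3, an inhibitor of the cap-binding factor eIF4E, had 8.70 to 28.3 (median 15.9) in the light and 26.8 to 139 (median 50.4) in the dark, a difference of 1.69 ± 0.21 (adjusted p = 1.20e-05), with 2 ZT9 livers above the lowest dark liver, one of ZT21. Col27a1, a fibrillar collagen chain, had 15.1 to 85.8 (median 49.6) in the light and 95.2 to 207 (median 144) in the dark without overlap, a difference of 1.51 ± 0.16 (adjusted p = 2.37e-06). Further genes of the largest rises were the noncoding transcript Gm20634 (2.06), Cry1, Cml5 (1.52), Hspb1, Hsph1, Hsp90aa1 and Creld2.

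Among genes that fell, Nr1d1 led and is described with the clock. Clec2h, a C-type lectin, had 16.9, 24.3 and 27.1 as lowest, median and highest values in the light livers and 2.44, 6.93 and 15.4 in the dark livers. The phases did not overlap, and the difference was -1.52 ± 0.20 (adjusted p = 2.25e-05). Klhl24, an adaptor of a ubiquitin ligase, did not overlap either, at 64.1 to 99.3 (median 76.5) in the light and 17.9 to 63.8 (median 26.6) in the dark (-1.27 ± 0.10, adjusted p = 1.35e-07). Slc7a2, a transporter of cationic amino acids, fell from means 2.71-fold apart, with 217 to 820.4 (median 505) in the light and 123 to 249.7 (median 171) in the dark. Its light and dark livers overlapped, and its difference of -1.33 ± 0.09 (adjusted p = 3.43e-08) came mostly from ZT17 minus ZT5 (-2.37). Fbxo21 (-1.32), an F-box protein, Tcp11l2 (-1.40), Syt1 (-1.37), a calcium sensor of vesicle fusion, Gnat1 (-1.13), a transducin subunit, 1500017E21Rik (-1.20) and Gm4070 (-1.31) completed the list with Junb and Abcg8. The call of Gm4070 was lost without any one of the 3 pairs of opposite times and without any one of 5 livers (ZT1 replicate 1, ZT5 replicate 2, ZT9 replicates 1 and 3, ZT21 replicate 1), where its difference was -1.26 to -1.13. Of these 23 genes, 7 had no overlap between phases. This is beside 0.45% of all genes in each direction, but the rule had already asked for time point means that did not overlap, and nothing is read from the count.

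**Figure D3:**
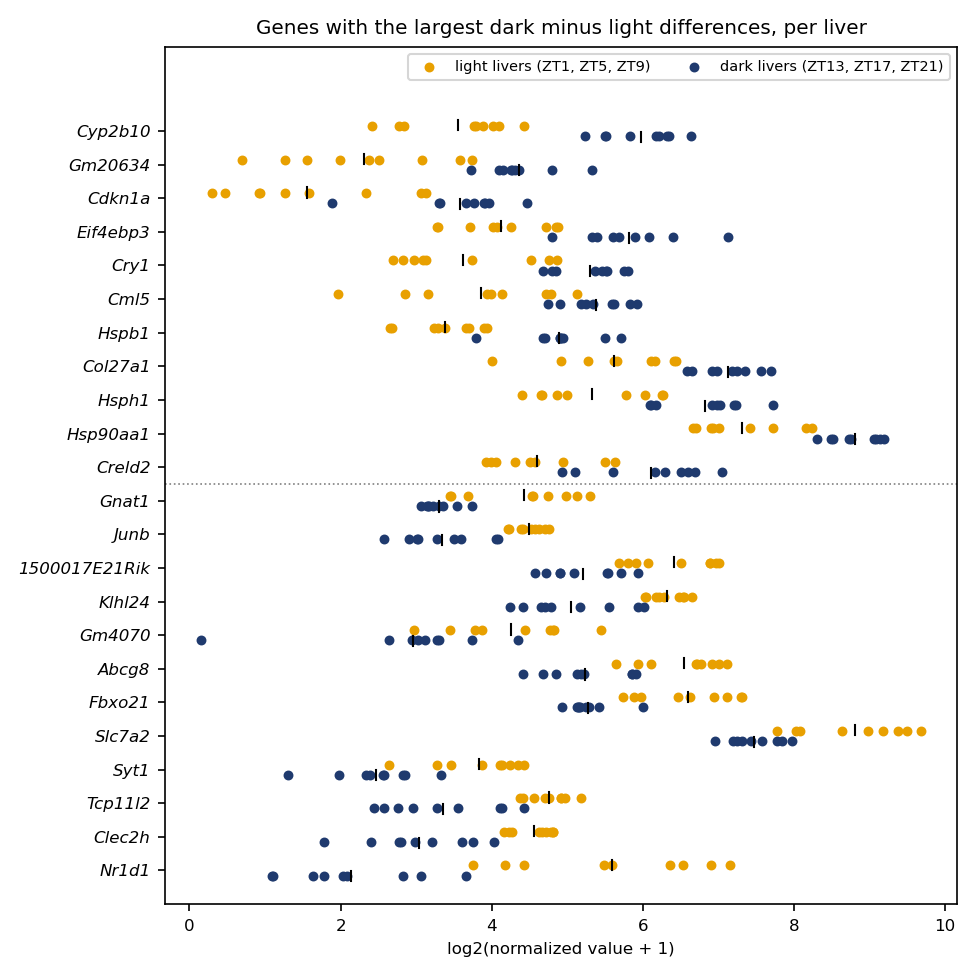
Values of each liver on log2(value + 1) (horizontal axis) for 11 genes with the largest rises (above the dotted line) and the 12 with the largest fall in the dark (below it), with light livers in orange, dark livers in blue and vertical ticks at the phase means of 9 livers. Cyp2b10, Col27a1, Hsp90aa1, Junb, Klhl24, Clec2h and Nr1d1 had no overlap between phases.

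Of 19 core clock and clock output genes, 8 were higher (42.1%) and 4 lower (21.1%) in the dark, beside 12.9% of all genes each way, the share against which the counts of all lists below stand. The balance turned without ZT1 and ZT13, to 7 higher and 10 lower with a median of -0.29 in place of 0.16, and with time point as a random block 3 were higher and 1 lower. Nr1d1 (ENSMUSG00000020889, chromosome 11 from 98767932 to 98775333), which encodes the repressor REV-ERB alpha, had the largest fall of all genes with a mean value of at least 5. Its lowest, median and highest values were 12.5, 47.2 and 142 in the light and 1.14, 3.08 and 11.7 in the dark, without overlap, and the phase means were 15.01-fold apart. The log2 difference was -3.46 ± 0.15 (adjusted p = 4.83e-11), with -0.93 between ZT13 and ZT1 and -5.54 between ZT17 and ZT5. Its paralog Nr1d2 (-1.49 ± 0.08, adjusted p = 1.22e-09) and the transcription factor Dbp (-2.37 ± 0.10, adjusted p = 4.83e-11) fell on average, but both were higher at ZT13 than at ZT1, by 1.34 and 3.37. Their phases overlapped, and with time point as a random block neither was called.

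The repressors Cry1, at 1.68 ± 0.10 (adjusted p = 1.41e-09), and Per2, at 1.39 ± 0.13 (adjusted p = 9.54e-07), rose, with overlap. Cry1 differed by 0.06 between ZT13 and ZT1 and by 2.67 and 2.32 at the later pairs, whereas Per2 differed by 2.98 and 1.95 at the first pairs and by -0.76 at ZT21 minus ZT9. Arntl, the gene of BMAL1 (1.20), Nfil3 (0.69), Clock (0.33), Per1 (0.57) and Hlf (0.29) were called higher as well, but the call of each was lost when 1 pair of opposite times was left out (ZT9 and ZT21 for Arntl, Nfil3 and Clock, ZT1 and ZT13 for Per1 and Hlf, and ZT5 and ZT17 for Nfil3 and Clock). That of Bhlhe41 (-0.87) was lost without ZT5 and ZT17 and without ZT9 and ZT21, and that of Per1 also without any one of 6 livers (ZT1 replicates 1 and 2, ZT9 replicate 2, ZT13 replicate 1, ZT17 replicate 1, ZT21 replicate 1), where its difference was 0.50 to 0.54. The differences of Per1 and Hlf without ZT1 and ZT13, and of Clock without ZT9 and ZT21, changed sign and were negative.

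The other 7 clock genes had opposite-time differences that were unequal in sign or in size. Tef, with a difference of -0.01 ± 0.06 (adjusted p = 0.878), was 2.59 higher at ZT13 than at ZT1 and fell by 2.03 from ZT9 to ZT21. Per3 (0.01), Npas2 (0.22), Ciart (-0.23), Bhlhe40 (-0.05), Cry2 (0.16) and Rora (-0.18) were not called either, and in each of the 7 the 3 opposite-time differences varied, with adjusted p between 1.81e-13 and 0.0345.

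BMAL1 and CLOCK bind the E-box CACGTG, and this palindrome was searched on both strands in the RefSeq promoter windows (250 bases before to 50 after the start, GRCm38.p6) of 10326 tested genes. It was present in 5 of 16 clock genes with a window (31.2%), against 11.5% of all genes, 13.4% of those that rose and 13.7% of those that fell. The 5 stretches are shown because their genes share the motif and not the direction, with Per1 and Cry1 higher, Bhlhe41 lower and Tef and Ciart not called. Each is written 5′ to 3′ on the strand of its gene, with 1 E-box in capitals, and that of Ciart opens with a further copy.
Per1 (chr11:69098768-69098803, plus strand): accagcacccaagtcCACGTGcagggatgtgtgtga
Cry1 (chr10:85185094-85185129, minus strand): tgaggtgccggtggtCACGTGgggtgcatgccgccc
Bhlhe41 (chr6:145865553-145865588, minus strand): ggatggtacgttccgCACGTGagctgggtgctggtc
Tef (chr15:81802531-81802566, plus strand): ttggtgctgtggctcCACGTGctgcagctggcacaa
Ciart (chr3:95882252-95882287, minus strand): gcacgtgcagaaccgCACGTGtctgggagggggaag

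**Figure D4:**
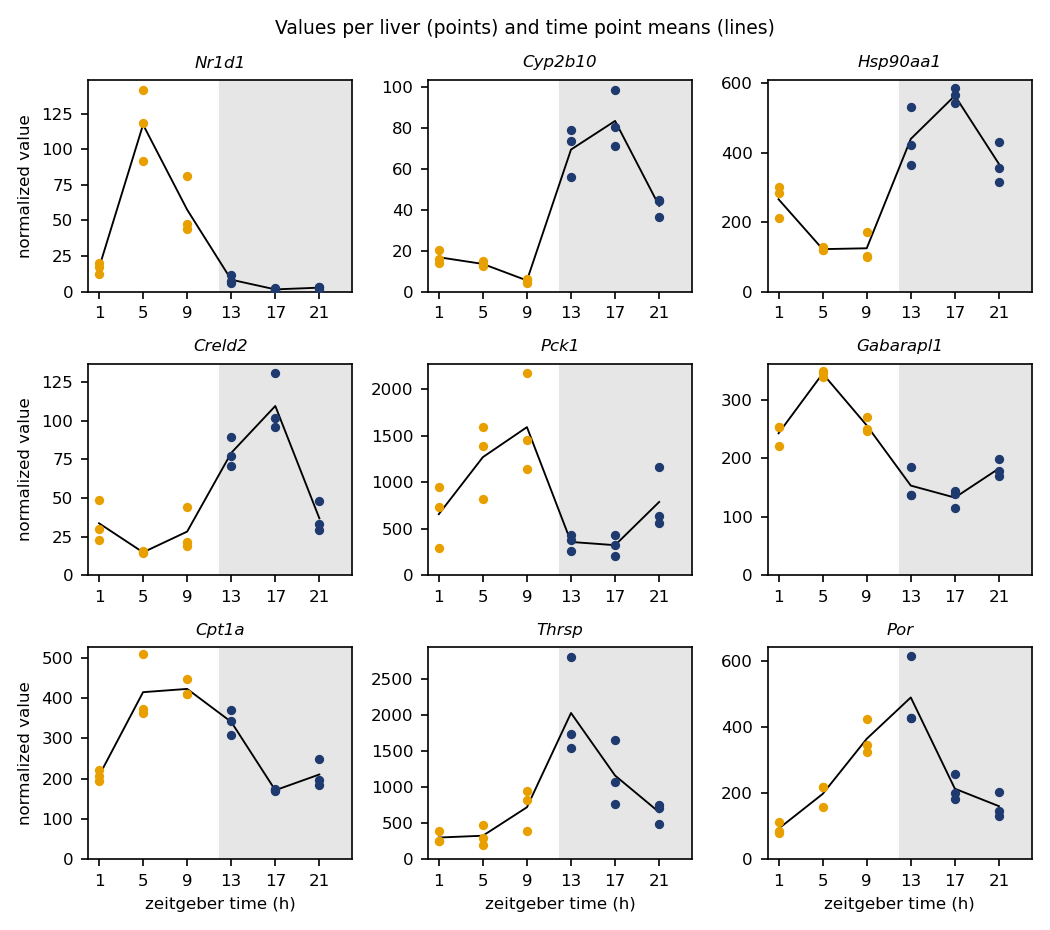
Normalized value (vertical axes, linear from 0) against zeitgeber time in hours for 9 genes, with points for livers (orange in the light, blue in the dark), lines through time point means of 3 livers and the dark phase shaded. Nr1d1 and Gabarapl1 were lower in every dark liver and Cyp2b10 and Hsp90aa1 higher, whereas Por rose through the light phase, was highest at ZT13 and was low again at ZT21.

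Heat shock chaperones, which fold and refold proteins in the cytosol and mitochondria, were mostly higher. Of 20 tested, 16 were higher and 0 lower in the dark, against 12.9% of all genes higher, and their median difference was 0.68, against -0.0068 over all genes. The 16 stayed at 16 with plain total scaling and came to 12 with time point as a random block and 15 without ZT5 and ZT17. Hsp90aa1 (ENSMUSG00000021270, chromosome 12 from 110690605 to 110702728), the inducible cytosolic HSP90, had 100.7, 128 and 302 as lowest, median and highest values in the light and 315, 429.9 and 585 in the dark. No dark liver was as low as the highest light liver, and the difference was 1.50 ± 0.10 (adjusted p = 2.03e-08). Hsph1 (1.50 ± 0.14, adjusted p = 9.54e-07), Hspb1 (1.51 ± 0.16, adjusted p = 2.61e-06) and Hspa4l (1.06 ± 0.08, adjusted p = 9.96e-08), an HSP110, a small heat shock protein and a further HSP110, rose too, each with overlap between phases. At opposite times, 15, 17 and 9 of the 20 were higher at ZT13, ZT17 and ZT21, and 0 were lower at any, beside 7.87%, 10.3% and 6.16% of all genes higher and 8.13%, 11.2% and 5.97% lower at these pairs. In 5 members no dark liver fell below any light liver. The 4 not called were Hspa4 (0.10), Hsf1 (0.15), Cryab (0.08) and Hspa1a (0.56), and reads of Hspa1a and its near-identical copy Hspa1b, which rose (0.97), are divided by estimate. Of the 2 cold-inducible RNA-binding proteins, Cirbp fell (-0.59 ± 0.09, adjusted p = 0.00011), from 12.9 to 20.2 (median 15.96) in the light to 6.67 to 14.2 (median 9.94) in the dark, and Rbm3 was at 0.12 and not called.

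The heat shock element, searched as GAANNTTCNNGAA and TTCNNGAANNTTC, was in 59 of the 10326 promoter windows (0.571%), and 18 of these 59 genes rose (30.5%) and 4 fell (6.78%), beside 13.4% and 13.7% of all genes with a window. It was in 4 of the 15 heat shock genes with a window, Hsph1, Hspd1, Hspe1 and Chordc1, so that the 18 include members of the list above. Hspd1 and Hspe1, the mitochondrial chaperonin and its partner, share 1 promoter on chromosome 1 and are read in opposite directions, so their stretches show the 2 strands of nearly the same bases. The capitals mark the match found on each gene's strand, and these 2 matches overlap without being the same. Both genes rose, by 0.19 and 0.43.
Hspd1 (chr1:55088044-55088086, minus strand): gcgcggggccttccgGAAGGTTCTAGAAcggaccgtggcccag
Hspe1 (chr1:55088049-55088091, plus strand): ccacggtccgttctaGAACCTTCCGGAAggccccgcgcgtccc

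Genes of protein folding in the endoplasmic reticulum (ER) moved the same way at 1 pair of times above all. Of 31 tested, 20 were higher and 0 lower, with a median difference of 0.23. Creld2 (ENSMUSG00000023272, chromosome 15 from 88819646 to 88826683), a secreted ER stress protein, had 14.2, 21.8 and 48.5 in the light and 29.4, 77.5 and 131 in the dark, with overlap, and a difference of 1.50 ± 0.15 (adjusted p = 2.26e-06). Manf, a further secreted ER stress protein (0.89 ± 0.09, adjusted p = 3.13e-06), Sdf2l1 (0.88 ± 0.14, adjusted p = 0.000172) and Hyou1, an ER chaperone (0.85 ± 0.10, adjusted p = 9.98e-06), followed. The ZT17 minus ZT5 difference of Creld2 was 2.79, against 1.27 and 0.44 at the other pairs, and the 3 differences varied (adjusted p = 0.000668). Over the list, 24 genes were higher and 0 lower at ZT17 than at ZT5, 5 and 1 at ZT13 than at ZT1, and 4 and 5 at ZT21 than at ZT9. Of all genes, 10.3% were higher and 11.2% lower at ZT17 than at ZT5. Without ZT5 and ZT17, 4 of the 31 were called higher and 0 lower, and the calls of Sdf2l1 and Hyou1 were lost. With plain total scaling 16 rose and 1 fell, and with the random block 11 rose and 0 fell. The stress sensors Ern1 (-0.19), Eif2ak3 (-0.09) and Atf6 (-0.07) were not called.

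The ER stress element, searched as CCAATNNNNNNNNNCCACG on both strands, was in only 19 of 10326 promoter windows (0.184%). Of these 19 genes 9 rose (47.4%) and 0 fell, beside 13.4% and 13.7% of all genes with a window. Of the 19, 9 were among the 26 ER genes with a window (34.6%), so the count is not independent of the ER list. Their stretches are shown because the element is rare and because 7 of these 9 genes rose, with the element in capitals as it lies on the gene's strand. The windows of Calr and Derl3 also hold an E-box.
Hspa5 (chr2:34772010-34772058, plus strand): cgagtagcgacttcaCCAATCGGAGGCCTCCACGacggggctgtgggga
Creld2 (chr15:88819505-88819553, plus strand): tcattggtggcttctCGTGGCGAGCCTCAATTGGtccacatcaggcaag
Syvn1 (chr19:6046517-6046565, plus strand): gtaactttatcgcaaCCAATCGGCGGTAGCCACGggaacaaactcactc
Dnajc3 (chr14:118937812-118937860, plus strand): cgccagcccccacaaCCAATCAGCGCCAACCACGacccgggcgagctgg
Hsp90b1 (chr10:86705518-86705566, minus strand): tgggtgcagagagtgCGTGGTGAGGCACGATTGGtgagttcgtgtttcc
Calr (chr8:84847060-84847108, minus strand): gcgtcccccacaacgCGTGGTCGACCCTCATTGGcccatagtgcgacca
Pdia6 (chr12:17266476-17266524, plus strand): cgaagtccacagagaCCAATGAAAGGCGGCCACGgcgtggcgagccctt
Canx (chr11:50325785-50325833, minus strand): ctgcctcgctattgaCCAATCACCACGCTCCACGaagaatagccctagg
Derl3 (chr10:75893227-75893275, plus strand): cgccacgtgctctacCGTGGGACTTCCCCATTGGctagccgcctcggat

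Further motifs were searched, and 3 of them are given here. The D-box (TTATGTAA or TTACGTAA) was in 94 windows, 16 of genes that rose (17%) and 9 of genes that fell (9.57%), again beside 13.4% and 13.7% of all genes with a window. The cyclic AMP response element (TGACGTCA) was in 358 windows, of which 49 rose (13.7%) and 52 fell (14.5%), and the forkhead element (TGTTTAC) in 333, of which 40 rose (12%) and 65 fell (19.5%).

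The first 7 genes with an ER stress element rose, by 0.78 (Hspa5, the ER chaperone BiP), 1.50, 0.85 (Syvn1, a ubiquitin ligase of ER-associated degradation), 0.34, 0.33, 0.20 and 0.19. Canx (0.09, adjusted p = 0.161) and Derl3 (0.14, adjusted p = 0.669) carried the element and were not called. Genes of COPI and COPII vesicles and Golgi traffic, which carry proteins on from the ER, were higher in 12 of 33 and lower in 2. Mcfd2, a cargo receptor subunit (0.52 ± 0.05, adjusted p = 1.39e-06), and Copg1, a COPI coat subunit (0.43 ± 0.05, adjusted p = 7.46e-06), were the largest, followed by Sec22b (0.39) and Sec23b (0.37), whose calls were lost without ZT5 and ZT17. There were 6 higher and 4 lower with plain total scaling, 4 and 0 with the random block and 2 and 0 without ZT5 and ZT17.

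**Figure D5:**
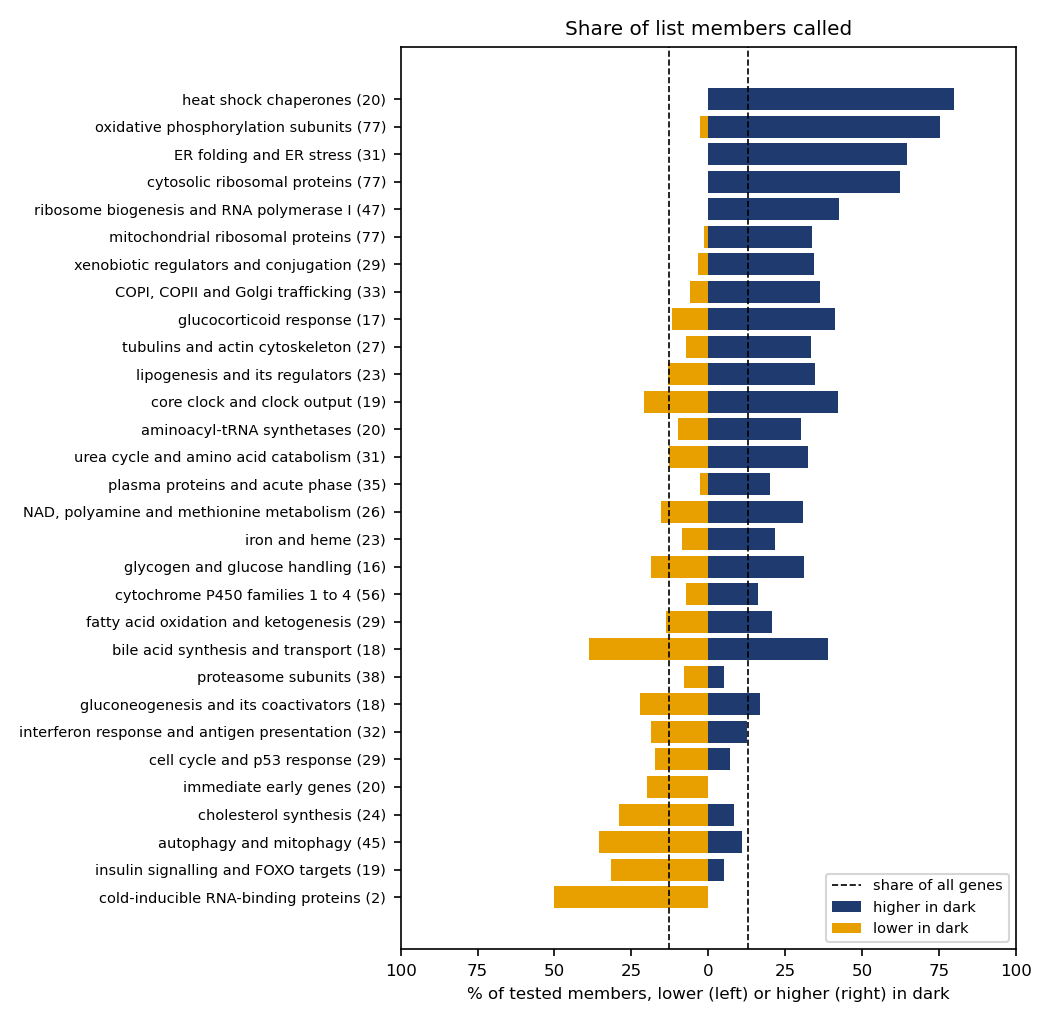
Share of tested members of each gene list (number tested in brackets) called higher (blue, right) or lower (orange, left) in the dark, in percent, with dashed lines at the shares of all genes (12.9% each way). Heat shock chaperones (80.0% higher) and oxidative phosphorylation subunits (75.3% higher) lay furthest to the right, and Cirbp and Rbm3 (1 of 2 lower) furthest to the left.

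Differences in components of ribosomes and of the respiratory chain were small, and the number called depended on the setting. Of 77 cytosolic ribosomal proteins 48 rose (62.3%) and 0 fell, with a median difference of 0.14, but 9 of 77 were called with plain total scaling, 2 with time point as a random block and 1 without ZT5 and ZT17. The largest were Rpl10 (0.31 ± 0.11, adjusted p = 0.0437), Rpl41 (0.30 ± 0.09, adjusted p = 0.0198) and Rpl35 (0.25 ± 0.09, adjusted p = 0.0403). Their calls were lost with plain total scaling and without ZT5 and ZT17, and that of Rps27l (0.24) without ZT5 and ZT17. Those of Rpl10 and Rpl35 were also lost without any one of 11 livers, where the differences were 0.21 to 0.33 and 0.18 to 0.26. The livers that could be left out with the call kept were ZT1 replicate 3, ZT5 replicate 3, ZT9 replicate 3, ZT13 replicates 2 and 3, ZT17 replicate 1 and ZT21 replicate 2 for Rpl10, and ZT1 replicates 2 and 3, ZT5 replicate 1, ZT9 replicate 2, ZT13 replicates 2 and 3 and ZT21 replicate 2 for Rpl35. Many ribosomal protein genes share reads with processed copies. The oxidative phosphorylation list was filled by symbol, with every Atp5 symbol included, so not every member need be a subunit. Of its 77 genes 58 rose and 2 fell, with a median of 0.18. But with plain total scaling 30 rose and 2 fell, and with the random block 14 rose and 0 fell. Ndufa5 (0.35 ± 0.07, adjusted p = 0.0011), of complex I, and Uqcr10 (0.32 ± 0.07, adjusted p = 0.00297), of complex III, had 29.1 to 36.7 (median 31.3) and 48.6 to 66.96 (median 55.1) in the light and 35.2 to 49.5 (median 38.9) and 61.4 to 90.3 (median 66.7) in the dark. In each, 1 or more dark livers lay below the highest light liver. Without ZT5 and ZT17, 3 of the 77 rose and 0 fell, and the calls of Ndufa5, Uqcr10, Ndufs7 (0.33) and Atp5s (-0.34, one of the 2 that were lower) were lost.

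Mitochondrial ribosomal proteins rose in 26 of 77 and fell in 1, with 15 and 1 under plain total scaling, 7 and 0 with the random block and 6 and 0 without ZT5 and ZT17. Mrpl34 was the largest at 0.47 ± 0.06 (adjusted p = 2.07e-05), before Mrpl4 (0.36), Mrps2 (0.35) and Mrps21 (0.35). Ribosome biogenesis and RNA polymerase I genes rose in 20 of 47 and fell in 0, with a median of 0.20. There were 17 higher and 2 lower with plain total scaling, 12 and 0 with the random block and 10 and 0 without ZT5 and ZT17. Nolc1, a nucleolar phosphoprotein, was at 14.5 to 26.8 (median 19.4) in the light and 26.7 to 43.9 (median 34.9) in the dark, a difference of 0.77 ± 0.09 (adjusted p = 1.24e-05). One dark liver lay just below the highest light liver, and the difference was positive at each pair of opposite times (0.68, 0.93 and 0.69). Nop16 (0.73 ± 0.05, adjusted p = 6.03e-08) and Rrp12 (0.73 ± 0.09, adjusted p = 1.22e-05), assembly factors of the ribosome, rose too, as did Taf1c (0.58), a factor of RNA polymerase I. Of 20 aminoacyl-tRNA synthetases 6 rose and 2 fell, led by Farsa (0.33) and Cars (-0.40), with Iars at 0.26 and Tars at 0.24. These calls were lost without ZT5 and ZT17, where 0 of 20 were called, as with the random block, and Tars was at -0.21 without ZT9 and ZT21. Of 38 proteasome subunits 2 rose and 3 fell, below the shares of all genes, with Psma5 at -0.30 ± 0.05 (adjusted p = 0.000153). There were 0 higher and 5 lower with plain total scaling, and 0 and 1 with the random block. The calls of Psmd3 (-0.18), Psmc5 (0.17) and Psmb5 (0.16) were lost without ZT5 and ZT17. Those of Psmc5 and Psmb5 were also lost with plain total scaling and without ZT9 and ZT21. Psmb5 further lost its call without ZT1 replicate 1 or ZT9 replicate 3, where it was at 0.15.

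In carbohydrate metabolism, 5 of 16 genes of glycogen and glucose handling rose and 3 fell. Ppp1r3b (ENSMUSG00000046794, chromosome 8 from 35375739 to 35388139), which brings protein phosphatase 1 to glycogen and promotes its synthesis, had 110.4, 174 and 313 as lowest, median and highest values in the light and 354, 528 and 726 in the dark. Every dark liver was above every light liver, with a difference of 1.39 ± 0.14 (adjusted p = 1.67e-06). Pfkfb1, the bifunctional enzyme that sets fructose 2,6-bisphosphate, also rose without overlap (0.97 ± 0.10, adjusted p = 3.00e-06). Phka2, a subunit of the kinase that activates glycogen breakdown, fell (-0.57 ± 0.09, adjusted p = 0.000111). With plain total scaling 3 of the 16 rose and 4 fell, and the median moved from 0.020 to -0.040, and with the random block 3 rose and 1 fell.

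Of 18 gluconeogenic genes and coactivators 3 rose and 4 fell, with a median of -0.032. The balance depended on the setting, with 3 and 0 without ZT5 and ZT17, 1 and 8 without ZT1 and ZT13 (median -0.14) and 0 and 0 with the random block. Pck1, the enzyme at the entry of gluconeogenesis, had 292 to 2172 (median 1143) in the light and 209 to 1162 (median 438) in the dark, with wide overlap and a difference of -1.25 ± 0.22 (adjusted p = 0.000497). This call was lost without ZT5 and ZT17 and with time point as a random block. Ppargc1a, a coactivator (-0.37), lost its call there too. The glucose 6-phosphate transporter Slc37a4 (0.51) lost its call without ZT1 and ZT13, where its difference was negative. Got1 (-0.44) lost its call without any one of 15 livers (all but ZT9 replicate 2, ZT13 replicate 1 and ZT17 replicate 1), where it was at -0.46 to -0.32, and was at 0.14 without ZT5 and ZT17. Among 19 genes of insulin signalling and FOXO targets 1 rose and 6 fell (0 and 3 with the random block). Trib3, an inhibitor of AKT, fell from 1.56 to 13.2 (median 7.07) in the light to 1.17 to 3.27 (median 1.78) in the dark (-1.27 ± 0.16, adjusted p = 1.65e-05), with a negative difference at every pair of opposite times. Sesn1 (-0.41 ± 0.07, adjusted p = 0.000209), a stress-induced regulator of nutrient signalling, fell too. Igfbp1, which encodes an insulin-repressed binding protein of IGF1, was lower on average (-1.48 ± 0.35, adjusted p = 0.00492) but ran from -5.17 at ZT13 minus ZT1 to 2.07 at ZT21 minus ZT9. Without ZT1 and ZT13 its call was lost and its difference was positive. The same held for Irs2 (-0.55), whose call was also lost without ZT5 and ZT17.

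Of 23 lipogenic genes and regulators 8 rose and 3 fell, or 3 and 0 with the random block and 4 and 0 without ZT5 and ZT17. Thrsp (Spot 14), a lipogenic regulator of the fed liver, had 201, 389.5 and 940.3 in the light and 484, 1066 and 2806 in the dark, with overlap, and a difference of 1.50 ± 0.20 (adjusted p = 3.24e-05). It was 2.74 higher at ZT13 than at ZT1, 1.85 at ZT17 than at ZT5 and -0.07 at ZT21 against ZT9, and the 3 differences varied (adjusted p = 0.00148). Pnpla3, a lipid droplet lipase, was higher by 1.31 ± 0.40 (adjusted p = 0.0202), a call lost without ZT1 and ZT13 and without ZT9 and ZT21. Usp2 (0.71) lost its call without ZT1 and ZT13, where its difference was negative. Of the main synthetic enzymes, Fasn, fatty acid synthase, was called higher (0.44 ± 0.15, adjusted p = 0.0401), near the threshold. Acly (0.20), Acaca (0.11) and Scd1 (-0.07) were not called, and whether these genes differed from Fasn was not tested.

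Fatty acid oxidation and ketogenesis gave 6 higher (20.7%) and 4 lower (13.8%) of 29, beside 12.9% of all genes each way, or 3 and 1 with the random block and 1 and 1 without ZT5 and ZT17. Cpt1a, the carnitine transferase that admits fatty acids to mitochondria, had 193 to 509 (median 373) in the light and 168 to 370.5 (median 197) in the dark. It was lower by phase (-0.52 ± 0.07, adjusted p = 2.75e-05), although ZT13 livers were above ZT1 livers (0.72), and the call was lost without ZT5 and ZT17. Acot1 (0.99) and Acot3 (1.25), neighbouring acyl-CoA thioesterases of closely related sequence, were higher, and both calls were lost without ZT5 and ZT17. Acot3 also lost its call without ZT1 and ZT13 and without either of 2 livers (ZT9 replicate 3, ZT17 replicate 1), at 1.11 and 1.05. Fgf21, a fasting hormone at values of at most 2.67 in the light, was lower (-0.55), a call lost without ZT1 and ZT13 or ZT5 and ZT17. With plain total scaling 4 of the 29 rose and 4 fell, and the median moved from 0.027 to -0.032.

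Cholesterol synthesis had 2 higher and 7 lower of 24, or 0 and 8 with plain total scaling, but 0 and 1 with the random block. The balance turned without ZT1 and ZT13, to 4 higher and 2 lower with a median of 0.022 in place of -0.047. Nsdhl, a sterol dehydrogenase, fell (-0.46 ± 0.10, adjusted p = 0.00187), with a negative difference at every pair of opposite times, from 59.5 to 109 (median 80.9) in the light to 47.6 to 68.3 (median 61.04) in the dark with some overlap. Hmgcs1, which makes HMG-CoA, was lower (-0.68 ± 0.22, adjusted p = 0.0324), from -2.02 at ZT13 minus ZT1 to 0.83 at ZT21 minus ZT9. Its call was lost without any one of 10 livers (ZT1 replicates 1 and 3, ZT5 replicates 1 and 3, ZT9 replicate 2, ZT13 replicate 1, ZT17 replicates 1 and 3, ZT21 replicates 1 and 3), where it was at -0.68 to -0.49. Without ZT5 and ZT17 none of the 24 was called in either direction. The calls of Idi1 (-0.48) and Mvk (-0.42), enzymes of the mevalonate pathway, and of Hmgcs1 were also lost without ZT1 and ZT13. None of these calls was kept with the random block, and that of Hmgcs1 was also lost with no time term and with no trend.

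Bile acid synthesis and transport held both directions, with 7 higher and 7 lower of 18, or 3 and 2 with the random block and 2 and 6 without ZT5 and ZT17. Cyp7a1, the rate-limiting enzyme of bile acid synthesis, had 32.5, 69.00 and 129 as lowest, median and highest values in the light and 102, 141 and 302 in the dark. The phases overlapped, and the difference was 1.15 ± 0.24 (adjusted p = 0.00168), kept under each setting tried. Abcg8 and Abcg5, the paired parts of the transporter that exports sterols into bile, both fell (-1.31 ± 0.07, adjusted p = 1.18e-09, and -0.82 ± 0.09, adjusted p = 2.82e-06). They are neighbours on chromosome 17, and both were lower at ZT17 and ZT21 than 12 h earlier, while at ZT13 minus ZT1 Abcg8 was at -0.03 and Abcg5 at 0.64. The call of Abcg5 was lost with time point as a random block. Hsd3b7, an enzyme of bile acid synthesis (-0.46), lost its call without ZT1 and ZT13.

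Among 56 cytochromes P450 of families 1 to 4, 9 rose and 4 fell, near the shares of all genes, 4 rose and 6 fell with plain total scaling, and 1 rose and 0 fell with the random block. After Cyp2b10, Cyp2a5 rose most (0.97 ± 0.16, adjusted p = 0.000287), from 2.86 at ZT13 minus ZT1 to -0.98 at ZT21 minus ZT9, and its call was lost without ZT1 and ZT13. Cyp2c37 (0.44) and Cyp2g1 (-0.56) each lost theirs without ZT5 and ZT17 and without ZT9 and ZT21. Of 29 xenobiotic regulators and conjugating enzymes 10 rose and 1 fell, or 8 and 1 with plain total scaling, 6 and 0 without ZT5 and ZT17 and 2 and 0 with the random block. Gsta3, a glutathione transferase, had 884 to 1598 (median 1295) in the light and 1651 to 2114 (median 1763) in the dark without overlap (0.54 ± 0.08, adjusted p = 4.42e-05). Sult1a1, a sulfotransferase, rose by 0.47 ± 0.09 (adjusted p = 0.000933). Por, the reductase that feeds electrons to the microsomal P450 enzymes, was higher by 0.44 ± 0.11 (adjusted p = 0.00591), but this mean joined 2.39 at ZT13 minus ZT1, 0.11 at ZT17 minus ZT5 and -1.20 at ZT21 minus ZT9. Without ZT1 and ZT13 the calls of Por and of Sult1d1 (0.39) were lost, and the difference of Por was -0.54.

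Of 45 genes of autophagy and mitophagy 16 fell and 5 rose, against 12.9% of all genes each way, with plain total scaling 22 fell and 3 rose, and with the random block 7 fell and 1 rose. Gabarapl1 (ENSMUSG00000030161, chromosome 6 from 129533160 to 129542346), an ATG8 family protein of the autophagosome membrane, had 220.5, 254 and 349.7 as lowest, median and highest values in the light and 116, 144 and 199.5 in the dark. The phases did not overlap, and the difference was -0.84 ± 0.06 (adjusted p = 5.54e-08), largest at ZT17 minus ZT5 (-1.38). Ulk1, the kinase that starts autophagy, fell from 53.2 to 109 (median 93.1) to 27.8 to 70.3 (median 49.2) (-0.80 ± 0.07, adjusted p = 7.81e-07), with overlap and a difference of 0.17 at ZT13 minus ZT1. Rb1cc1 (FIP200), a scaffold of the ULK1 complex, fell without overlap, from 47.01 to 56.8 (median 51.1) in the light to 33.8 to 45.01 (median 38.6) in the dark (-0.38 ± 0.05, adjusted p = 2.76e-05). Pik3c3, the lipid kinase VPS34, fell as well (-0.37 ± 0.07, adjusted p = 0.000473). Wipi2 and Tax1bp1, chosen after their values were seen because they completed the 4 members without overlap, fell as well (-0.26 ± 0.04 and -0.20 ± 0.04). Among the 5 that rose was the ATG8 protein gene Map1lc3a (0.37), while Map1lc3b fell (-0.17). Without ZT5 and ZT17, 8 fell and 1 rose. The transcription factors Tfeb (0.06) and Tfe3 (-0.14) were not called.

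Of 31 genes of the urea cycle and amino acid breakdown 10 were higher and 4 lower, but 6 and 5 with plain total scaling and 4 and 1 with the random block. Asl, the urea cycle enzyme that splits argininosuccinate, had 253, 310.1 and 406 in the light and 424, 571 and 756 in the dark. No dark liver fell to the level of a light one (0.85 ± 0.07, adjusted p = 2.12e-07). Ahcy, which hydrolyses S-adenosylhomocysteine, rose by 0.59 ± 0.07 (adjusted p = 4.72e-06), and Prodh, proline dehydrogenase, by 0.52 ± 0.08 (adjusted p = 0.000159), the latter call lost without ZT1 and ZT13. Agxt, a glyoxylate transaminase, fell (-0.74 ± 0.08, adjusted p = 3.14e-06). Of 26 genes of NAD, polyamine and methionine metabolism 8 rose and 4 fell, or 8 and 8 with plain total scaling, where the median moved from 0.015 to -0.038, and 2 and 3 with the random block. Odc1, the first enzyme of polyamine synthesis, rose without overlap, from 53.6 to 81.2 (median 66.1) in the light to 90.04 to 147 (median 104) in the dark (0.77 ± 0.06, adjusted p = 2.03e-07). Srm, the next enzyme, rose by 0.71 ± 0.09 (adjusted p = 1.11e-05), a call lost with time point as a random block. Nnmt (0.79) and Acmsd (0.78), enzymes of nicotinamide and tryptophan breakdown, lost their calls without ZT1 and ZT13 and without ZT9 and ZT21, respectively.

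In the iron and heme list 5 of 23 rose and 2 fell, or 1 and 0 with the random block. Tfrc, the transferrin receptor, was higher (0.70 ± 0.13, adjusted p = 0.000805), a call lost without ZT5 and ZT17, as was that of the biliverdin reductase gene Blvrb (0.34). Hfe2, the hemojuvelin gene (0.36), lost its call without ZT9 and ZT21. Hamp, the hormone hepcidin (0.57), lost its call with plain total or quantile scaling, with no trend, without ZT1 and ZT13 and without ZT5 and ZT17. It was also lost without any one of 13 livers (all but ZT1 replicate 1, ZT5 replicate 3, ZT9 replicate 1, ZT13 replicate 3 and ZT21 replicate 2), where Hamp was at 0.45 to 0.61. Of 35 plasma and acute phase proteins 7 rose and 1 fell, but with plain total scaling 1 rose and 8 fell and the median changed sign, from 0.029 to -0.031, and with the random block 0 rose and 1 fell. Saa4, a constitutive serum amyloid, was higher (0.60 ± 0.07, adjusted p = 1.30e-05), a call lost without ZT5 and ZT17 and with the random block. F11, coagulation factor XI, fell (-0.42 ± 0.08, adjusted p = 0.00101). Orm1 (0.28) lost its call with plain total scaling, with no time term, with the random block and without ZT5 and ZT17. It was also lost without any one of 8 livers (ZT1 replicate 1, ZT5 replicate 1, ZT9 replicates 1 and 3, ZT13 replicate 2, ZT17 replicates 2 and 3, ZT21 replicate 1), where Orm1 was at 0.24 to 0.27.

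Glucocorticoid-responsive genes gave 7 higher and 2 lower of 17, or 3 and 1 with the random block. Tsc22d3 (GILZ) had 27.9, 48.8 and 74.3 as lowest, median and highest values in the light and 72.6, 100.5 and 123 in the dark. One light liver, of ZT1, lay above the lowest dark liver, and the difference was 1.16 ± 0.15 (adjusted p = 2.20e-05). Fkbp5, a chaperone of steroid receptors, rose by 1.36 ± 0.22 (adjusted p = 0.000171), from 2.64 at ZT13 minus ZT1 to -0.18 at ZT21 minus ZT9, and Klf9 fell (-0.70 ± 0.08, adjusted p = 6.29e-06). At ZT13 8 of the 17 were higher and 1 lower than at ZT1, and at ZT21 2 were higher and 5 lower than at ZT9. Without ZT1 and ZT13 the list had 5 higher and 6 lower. Of 20 immediate early genes 0 rose and 4 fell (0 and 1 with the random block, and 2 and 2 without ZT1 and ZT13). Junb, a subunit of AP-1, fell without overlap, from 17.7 to 26.03 (median 21.9) in the light to 4.97 to 15.9 (median 8.68) in the dark (-1.16 ± 0.16, adjusted p = 3.56e-05). Egr1 was lower (-1.89 ± 0.36, adjusted p = 0.000866), with -5.43 at ZT13 minus ZT1 and 1.34 at ZT21 minus ZT9. Without ZT1 and ZT13 the calls of Egr1, Nr4a1 (-0.53) and Zfp36 (-0.38) were lost, and that of Nr4a1 also without any one of 5 livers (ZT5 replicate 3, ZT9 replicate 3, ZT13 replicate 2, ZT17 replicate 2, ZT21 replicate 1), where it was at -0.50 to -0.48. Of 29 cell cycle and p53 genes 2 rose and 5 fell, or 1 and 1 with the random block. The 4 with the largest differences were Cdkn1a, Ccne1 (-0.56), lost without ZT9 and ZT21, Mcm6 (-0.51), lost without ZT5 and ZT17, and Ccnd1 (-0.49), lost without either of these pairs and without any one of 8 livers (ZT1 replicate 1, ZT5 replicates 1 and 3, ZT9 replicates 2 and 3, ZT13 replicate 1, ZT17 replicate 2, ZT21 replicate 2), where it was at -0.48 to -0.39.

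The interferon and antigen presentation list had 4 higher (12.5%) and 6 lower (18.8%) of 32, beside 12.9% of all genes each way, or 2 and 10 with plain total scaling and 0 and 0 with the random block. Usp18 (-0.46 ± 0.09, adjusted p = 0.00159), Ifit3 (-0.42 ± 0.10, adjusted p = 0.00566) and Gbp7 (-0.41 ± 0.11, adjusted p = 0.0121), all interferon-induced, were lower, and the 3 calls were lost without ZT5 and ZT17, where none of the 32 was called. Ifit2 (-0.40) lost its call without any pair of opposite times and without any one of 8 livers (ZT1 replicate 1, ZT5 replicate 1, ZT9 replicates 2 and 3, ZT13 replicate 1, ZT17 replicates 1 and 2, ZT21 replicate 1), where it was at -0.41 to -0.31. In this list and in the markers of Kupffer, endothelial and stellate cells the medians were negative (-0.18, -0.30, -0.19 and -0.21), and whether these values are related was not tested. The summed value of the interferon list went the other way, from 3125 to 3609 (median 3467) in the light to 3544 to 3918 (median 3613) in the dark. Of 27 tubulin and actin cytoskeleton genes 9 rose and 2 fell, although the median was -0.0016, and 4 rose and 1 fell with the random block. Actg1, cytoplasmic actin, had 68.4 to 141 (median 94.95) in the light and 105 to 326 (median 193) in the dark (0.78 ± 0.11, adjusted p = 4.78e-05), with 3 light livers above the lowest dark liver. Tuba1c (0.74 ± 0.08, adjusted p = 2.01e-06) and Actb (0.51 ± 0.08, adjusted p = 0.000221), an alpha-tubulin and the other cytoplasmic actin, rose too, the call of Actb being lost without ZT5 and ZT17. Tubb2a, a beta-tubulin, was higher by 1.01 ± 0.08 (adjusted p = 1.86e-07), but it ran from -1.67 at ZT13 minus ZT1 to 3.33 at ZT21 minus ZT9. Its call was lost without ZT9 and ZT21, where its difference was negative.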

How the data were processed

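The 18 livers gave 1 mRNA-seq library each. The authors trimmed the reads with cutadapt, used CASAVA 1.8.2 and estimated counts with RSEM 1.2.20 on GRCm38, per the labels. The deposited values are a signal, normalized by the authors with limma. They were read as the estimated count plus 0.5 per 1000000 reads of an effective library size. The sources do not define this size. It was inferred by taking the lowest value of each liver as 0 reads, and the estimated reads per liver rest on this assumption. Between 39.1% and 47.9% of values gave whole reads (within 0.004 reads), so no count test was used. Columns of values not used numbered 0. No replicate pair agreed within sampling noise (mean chi-square per gene 6.63 to 50.1), a check for libraries deposited more than once that covers counting error only.

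From these values log2(value + 1) was computed for 14449 of 14451 genes, leaving out 2 at the floor in every liver. Differences were fitted with limma 3.58.1 with trend (R 4.3.3) on 6 time point means, with Benjamini-Hochberg adjustment over all genes, and the code was tested on simulated data. SE is that of the moderated fit. Tables and figures used Python 3.11.15, numpy 2.4.6, scipy 1.17.1, pandas 2.3.3 and matplotlib 3.10.9. Promoter windows are from RefSeq GRCm38.p6 (matched by symbol), and coordinates from GENCODE on GRCm38.

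Named genes are the 12 largest called differences in each direction with separated time point means and a mean value of at least 5, up to 4 called members per pathway list with the largest differences, and the clock list. A few genes under this rule are not reported here. Other genes named were chosen after their values were seen. The comparison and the lists were chosen with earlier results of these data known.

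Alternatives were pseudocounts of 0.25 and 5, a minimum mean of 1, plain total and quantile scaling, no trend, 9 against 9 livers with no time term or time point as a random block (consensus correlation 0.226), and leaving out each pair of opposite times and each liver.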

Additional observations from a re-analysis of the deposited data

Results flagged for a closer look

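In 19 of the 23 genes shown with the largest differences, the differences between opposite times varied (limma F test), and so did 92 of the 142 named genes and 2705 of 14449 genes. Among genes that rose the adjusted p was 0.00267 for Gm20634, 0.000528 for Cdkn1a, 0.0345 for Eif4ebp3, 3.96e-07 for Cry1, 2.74e-05 for Cml5, 0.0138 for Hspb1, 0.00351 for Col27a1, 0.0102 for Hsph1, 0.00119 for Hsp90aa1 and 0.000668 for Creld2. Among genes that fell it was 2.01e-07 for Nr1d1, 0.00322 for Tcp11l2, 0.00101 for Syt1, 2.60e-05 for Slc7a2, 0.00439 for Fbxo21, 1.64e-07 for Abcg8, 0.00668 for Klhl24, 0.000233 for 1500017E21Rik and 7.06e-05 for Gnat1.

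Dixon's test flags a liver whose gap over range is above the critical value for 9. In groups drawn from 1 normal distribution, chance gives this in about 1 in 20. The groups here join 3 time points, so the count of flagged groups cannot be judged against this rate. In 10 of 286 groups of 9 livers, 1 liver stood apart by the test. In the light these were ZT1 replicate 3 for Ndufa5 (36.7, the highest, ratio 0.561) and Nr4a1 (6.74, the highest, ratio 0.508), ZT5 replicate 1 for Blvrb (38.6, the lowest, ratio 0.612), Iars (26.1, the lowest, ratio 0.505) and Agxt (378, the highest, ratio 0.507), and ZT5 replicate 3 for the estimated reads (23242842, ratio 0.672). In the dark they were ZT13 replicate 2 for Cdkn1a (2.70, the lowest, ratio 0.551), ZT13 replicate 1 for Hmgcs1 (57.7, the lowest, ratio 0.534), ZT17 replicate 1 for Gm4070 (0.113, the lowest, ratio 0.593) and ZT21 replicate 2 for Fbxo21 (63.3, the highest, ratio 0.539).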

How the results depend on the processing

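The numbers of genes higher and lower in the dark were 1588 to 1829 and 1580 to 1803 without 1 liver, 1180 and 2571 with plain total scaling, 1188 and 1200 with no time term, 457 and 498 with time point as a random block, and 505 and 451 without ZT5 and ZT17. Genes whose opposite-time differences varied numbered 2175 to 2657 without 1 liver, 631 without ZT1 and ZT13, 2579 without ZT5 and ZT17 and 1290 without ZT9 and ZT21. Without a pair, fewer differences were left to compare. Of 135 called named genes, 62 were past the threshold in every setting. The difference in estimated reads ran from -305051 to 1316783 without 1 liver, never past the exact permutation test (p 0.124 to 0.971). Without ZT1 and ZT13 the log2 difference was -0.92 for Usp2, -0.76 for Per1, -0.022 for Slc37a4, -0.54 for Por, -0.29 for Hlf, -0.12 for Cry2, -1.73 for Per3, 0.0075 for Rora, 0.40 for Irs2 and 0.37 for Igfbp1. Without ZT5 and ZT17 it was 0.28 for Tef, 0.31 for Bhlhe40 and 0.14 for Got1. Without ZT9 and ZT21 it was -0.15 for Tubb2a, -0.16 for Clock, -0.21 for Tars, -1.43 for Npas2, 0.99 for Tef, 0.43 for Bhlhe40 and 1.26 for Ciart. Per3 was at -0.16 with a pseudocount of 5 and -0.045 with plain total scaling, and Ciart at 0.00021 with a pseudocount of 0.25. Without 1 liver Per3 ran from -0.032 to 0.098, Tef from -0.042 to 0.034 and Bhlhe40 from -0.17 to 0.024. Leaving out livers or times leaves fewer samples; the cause of the other changes was not tested. No paired analysis was possible because each mouse gave 1 liver at 1 time point.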

Other observations

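Besides the lists, 48 genes had every dark liver above every light liver and 59 had every dark liver below, and those named here were chosen after their values were seen. Of those higher, Fmo5, a flavin monooxygenase, ran from 533 to 828 (median 699.8) in the light to 946 to 1676 (median 1447) in the dark (1.01 ± 0.05, limma adjusted p = 7.42e-10), and Fmo1 differed by 0.67. Ces1d, a carboxylesterase, differed by 0.88 ± 0.10 (adjusted p = 4.87e-06), and Plin5, a lipid droplet protein, by 1.09 ± 0.09 (adjusted p = 9.96e-08). Acsl1 (0.59), which activates long-chain fatty acids, Agpat2 (0.66), of triglyceride synthesis, and Khk (0.56), the fructose kinase, were separated as well. Fgf1, a growth factor, ran from 58.5 to 116 (median 88.8) in the light to 124 to 199 (median 166) in the dark (0.86). Smaller differences were found in Cct5 (0.28) and Cct6a (0.27), subunits of a cytosolic chaperonin, and in Sod1 (0.30), superoxide dismutase.

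Among those lower, Sort1, a sorting receptor, ran from 24.04 to 41.1 (median 34.2) in the light to 11.5 to 19.3 (median 14.8) in the dark (-1.09 ± 0.10, adjusted p = 7.99e-07). Mtor, a kinase of nutrient signalling (-0.53 ± 0.06, adjusted p = 2.61e-06), Pik3ca (-0.36), a catalytic subunit of PI 3-kinase, and Eif4b (-0.57 ± 0.05, adjusted p = 1.11e-07), a translation initiation factor, were lower in every dark liver than in any light liver. So were Aqp9 (-0.51), the glycerol channel of hepatocytes, Klkb1 (-0.47), plasma prekallikrein, and Lrp1 (-0.30), an endocytic receptor.

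A phase mean near 0 did not mean flat levels. Of the 10 genes not called whose opposite-time differences varied with the lowest p, Tef, Per3 and Ciart are clock genes. Gys2, the liver glycogen synthase, had 99.05 ± 12.2 at ZT1 and 303 ± 7.34 at ZT9 (SD, n = 3), and its difference was 1.36 at ZT13 minus ZT1 and -1.35 at ZT21 minus ZT9. Aqp8, a water channel, had 292 ± 70.8 at ZT1 and 58.02 ± 10.9 at ZT9, with -2.04 and 2.29 at these pairs. Spon2, an extracellular matrix protein, went from 25.7 ± 1.14 at ZT1 to 2.69 ± 0.741 at ZT13. Nrg4, a secreted ligand of the ERBB family, went from 2.94 ± 0.104 at ZT1 to 13.8 ± 2.70 at ZT13. Ethe1 (-1.32 and 1.62 at the first and last pairs), Asap2 (-1.77 and 2.15) and Sco2 (-1.92 and 1.83) were the others.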
